A study of Mus musculus with 2 samples.

Results

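The Wnt pathway was followed in cells of the unwounded and wounded mouse cornea through 9 genes, namely the ligands *Wnt4*, *Wnt7a* and *Wnt10a*, the secreted antagonists *Dkk2*, *Dkk3* and *Sfrp1*, the receptor gene *Fzd6*, and *Axin2* and *Lef1*, which are targets of the pathway. They were taken by name from the 20198 genes of the deposited count table, and 8 of the 9 could be measured. *Wnt7a* was not analysed here.

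Wnt ligands bind Frizzled receptors together with the co-receptors Lrp5 and Lrp6. In the canonical branch this binding keeps β-catenin from being degraded, and β-catenin then switches on target genes in the nucleus together with factors of the Tcf and Lef family. Dickkopf proteins such as Dkk2 bind Lrp co-receptors, whereas secreted Frizzled-related proteins such as Sfrp1 bind the ligands themselves. In the mouse eye Dkk2 is known for keeping the surface epithelium from taking on a skin-like fate, and the limbus at the corneal rim holds the stem cells of the corneal epithelium.

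The data were droplet single-cell RNA-seq of 2 libraries. UW pooled the dissociated corneas of 4 unwounded mice, and W those of 4 mice killed 24 h after the central epithelium had been marked with a trephine of 2.5 mm and scraped off. All mice were males aged 6 to 8 weeks, with no transgene named for these libraries and a strain not given in the sources used here. For the wounding, the study's methods name pentobarbital anaesthesia, topical procaine, fluorescein staining and ofloxacin on the wound, whose effects cannot be told apart from those of the wound. Each library pooled its mice, and the tables used here were read by library and not by mouse. The UW library held 16450 cells and the W library 12417 cells, with medians of 22014 and 20290 unique molecular identifiers (UMIs, 1 per captured RNA molecule) per cell, and 52 cell barcodes occurred in both libraries.

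Cells were taken by the 17 deposited clusters. Of these, 10 (clusters 1 to 9 and 11) carried corneal epithelial cell (CEpC) markers or leading genes of differentiated epithelium and were handled together as CEpC-like, and cluster 0 was corneal stromal cell (CSC)-like. *Kera*, the keratocan gene of the stroma, measured 7482 CPM in UW and 2537 CPM in W in cluster 0, against 22.1 and 14.4 CPM in CEpC-like cells. Among the epithelial clusters, fixed marker lists scored cluster 9 highest for quiescent limbal cells, 3 for basal cells, 11 for S phase, 8 for mitosis, 1 and 4 for suprabasal cells, 6 and 7 for superficial cells and 5 for conjunctival cells, and left cluster 2 between superficial and suprabasal. Cluster 7 scored below 0 for every main class and was placed by its leading cornified envelope genes *Lce3a* and *Lce3f*. Clusters 14 and 15 were monocyte (Mono)-like and cluster 16 T-like. Cluster 13 expressed the neutrophil genes *S100a8* and *S100a9* but stayed unnamed since its median depth was 2510 UMIs in W, and cluster 10, which scored highest for corneal endothelial markers but was led by *Penk* and *Myoc*, stayed unnamed too. In CPM, cluster 10 held far more of the CSC markers (summed to 66925 in UW and 43249 in W) than of the endothelial ones (1840 and 1010). The CSC markers of cluster 0 summed to 70090 and 36774 CPM. Clusters 13 to 16 had at least 50 cells only in W.

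Levels are given as CPM, the UMIs of a gene per 1000000 UMIs summed over the cells of a cluster in 1 library. Since each condition was 1 library, no test between UW and W was possible, and each interval covers counting error only, not the spread between mice. A difference was called where it reached 2-fold. *Dkk2*, *Dkk3* and *Wnt10a* were among the 10 leading genes of clusters 0, 3 and 9, and all genes could shape the clusters, so the levels per cluster describe where the genes were found.

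The promoters of 3 members whose RNA was highest in the stroma in UW, *Dkk2*, *Axin2* and *Lef1*, are shown because they can be read for the short letters that Tcf and Lef factors bind. RefSeq windows of GRCm38.p6 from 250 bases before to 50 after a start site were searched on both strands for CTTTGA, which reads TCAAAG from the other side. The other motif searched was CTTTGT, or ACAAAG, which differs from it in the last base, so that no stretch can match both on 1 strand. Of the 9 members 5 had such a window. Matches stand in capitals.
*Dkk2*: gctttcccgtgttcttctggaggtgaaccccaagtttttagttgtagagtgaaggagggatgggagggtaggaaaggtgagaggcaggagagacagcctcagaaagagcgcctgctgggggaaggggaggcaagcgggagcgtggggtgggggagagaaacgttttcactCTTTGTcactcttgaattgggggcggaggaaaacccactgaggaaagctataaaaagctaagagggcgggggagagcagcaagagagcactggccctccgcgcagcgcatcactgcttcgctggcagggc
*Axin2*: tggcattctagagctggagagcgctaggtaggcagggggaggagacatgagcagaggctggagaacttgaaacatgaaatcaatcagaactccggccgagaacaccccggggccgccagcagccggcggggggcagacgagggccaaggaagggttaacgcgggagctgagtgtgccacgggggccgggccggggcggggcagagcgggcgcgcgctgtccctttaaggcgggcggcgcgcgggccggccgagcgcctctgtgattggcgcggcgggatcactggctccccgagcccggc
*Lef1*: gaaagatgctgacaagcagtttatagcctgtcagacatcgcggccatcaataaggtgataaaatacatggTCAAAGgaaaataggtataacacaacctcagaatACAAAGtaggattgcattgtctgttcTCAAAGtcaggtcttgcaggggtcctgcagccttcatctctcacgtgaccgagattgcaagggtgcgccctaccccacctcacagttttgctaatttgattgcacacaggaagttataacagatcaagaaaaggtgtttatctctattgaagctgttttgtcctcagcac
The *Dkk2* window (chr3:132085042-132085341, plus strand) held 1 match, of CTTTGT, and the *Axin2* window (chr11:108920099-108920398, plus strand) held 0. *Lef1* has 4 windows in the table. The one shown, at an inner start site (chr3:131156044-131156343, plus strand), held 3 matches and the other 3 held 0, as did the single windows of *Wnt4* and *Wnt7a*. Across all 32851 windows of the same length 31.2% held at least 1 of the motifs, that is 5257 windows with CTTTGA and 6147 with CTTTGT, so a match in a window of this size is common.

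The members had most of their UMIs either in the epithelium or in the stroma. For *Wnt4*, *Wnt10a*, *Dkk3*, *Sfrp1* and *Fzd6* it was the epithelium, which held 94.2% to 99.1% of their UMIs in UW against 90.7% of all UMIs, and *Fzd6* was the closest of the 5 to that share. For *Dkk2*, *Lef1* and *Axin2* it was the stroma in UW. The CSC-like cluster held 7.75% of all UMIs in UW but 87.8% of the UMIs of *Dkk2*, 87.1% of those of *Lef1* and 67.1% of those of *Axin2*. In W the stromal share of *Axin2* was 44.0% and the epithelial share 45.7%, up from 20.3%.

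**Figure D1:**
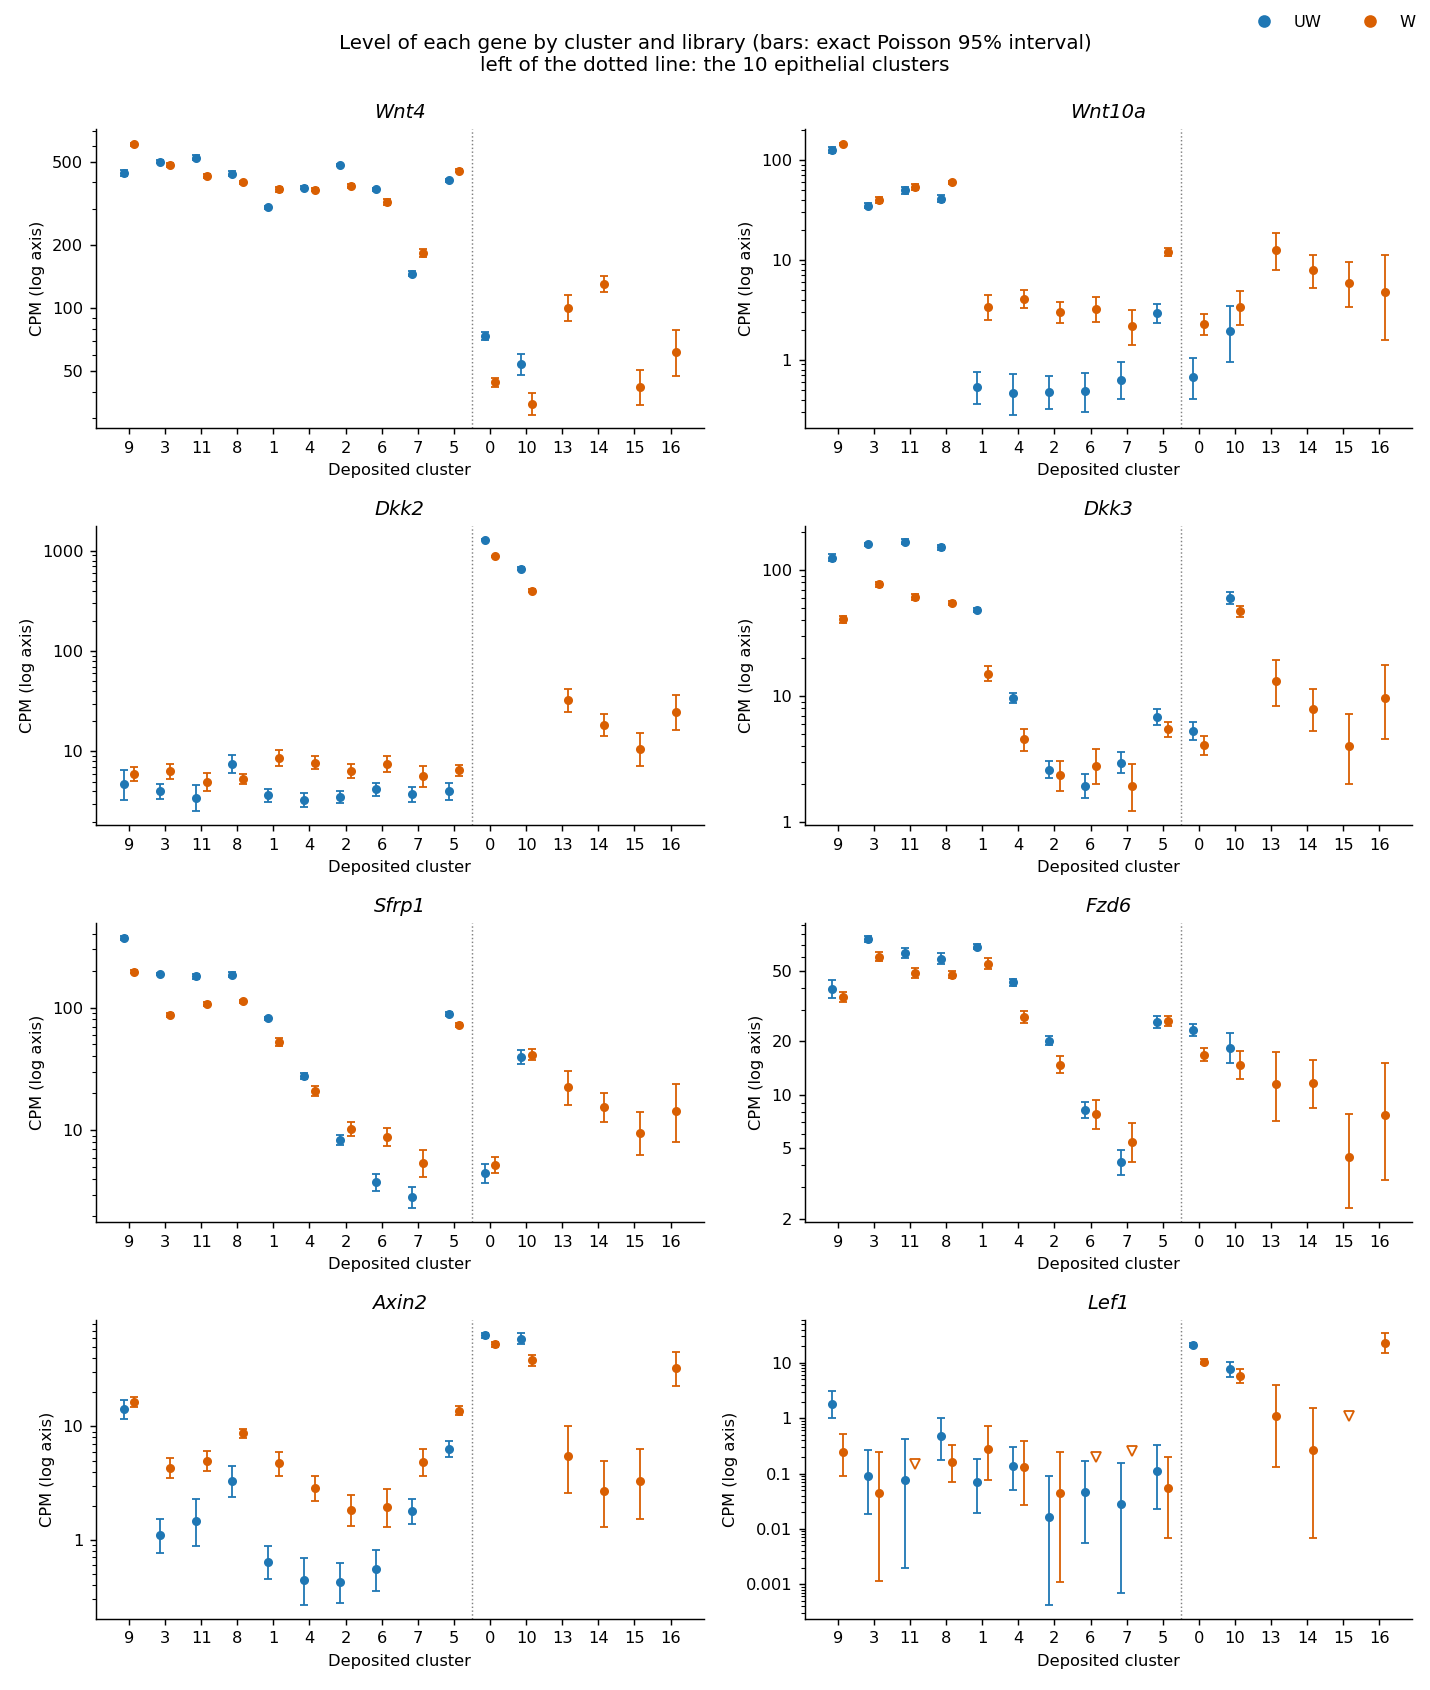
CPM of the 8 members (log axis, a scale of its own in each panel) in each deposited cluster with at least 50 cells, with UW in blue and W in orange. Bars are exact Poisson 95% intervals and open triangles stand for 0 UMIs, drawn at the level that 3 counts would give. *Dkk2* and *Axin2* were highest in cluster 0 in both libraries, with 1284 and 63.6 CPM in UW, whereas *Wnt10a* stood out in clusters 9, 3, 11 and 8.

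*Wnt4* encodes a ligand known from kidney and ovary development, and lies at chr4:137277489-137299726 in GRCm38. It was found in all epithelial clusters. In the basal-like cluster 3 it measured 502 CPM in UW (95% interval 495 to 510) and 484 CPM in W (474 to 493), with a median of 9 UMIs per cell in UW and 11 in W. Suprabasal-like clusters 1 and 4 held 304 and 377 CPM in UW and 371 and 370 CPM in W, and conjunctival-like cluster 5 held 409 and 455 CPM. The order in UW ran from the S phase cluster 11 at 525 CPM through clusters 3 and 2 to the superficial-like cluster 7 at 146 CPM, and neighbours 9 and 8, as well as 4 and 6, had overlapping intervals. In W cluster 9 came first at 610 CPM. *Wnt4* was thus carried by the epithelium from the limbal-like to the superficial clusters, with cluster 7 the lowest in both libraries.

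Within clusters *Wnt4* differed little between the libraries. Its log2 ratio of W over UW (0 means equal, 1 means 2-fold higher in W) lay between -0.33 in cluster 2 and 0.46 in cluster 9, with 4 of 10 intervals above 0, 5 below and none of the values at 2-fold. In cluster 9 *Wnt4* measured 442 CPM in UW (427 to 457) and 610 CPM in W (600.0 to 619). For all CEpC-like cells the log2 ratio was 0.13 (0.12 to 0.14) and changed sign to -0.09 with TMM scaling and -0.10 with median-of-ratios scaling.

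Outside the epithelium *Wnt4* may include free RNA, that is, RNA released into the suspension and caught in every droplet. The part of it was not tested. The stromal cluster 0 held 0.886 UMIs of *Wnt4* per cell in UW and 0.838 in W, against 0.261 to 1.36 per cell in clusters 13 to 16 of W. *Krt12*, a keratin of corneal epithelium, gave 1554 CPM in UW cluster 0 and 26753 CPM in UW epithelium. Per cell, cluster 0 held 18.7 UMIs of *Krt12* in UW and 13.9 in W, against 660 and 347 in CEpC-like cells. *Wnt4* held 9.44 and 11.8 UMIs per CEpC-like cell. Cluster 0 thus held a larger part of the epithelial level for *Wnt4* than for *Krt12* in both libraries.

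*Wnt10a*, a ligand that human genetics ties to teeth, hair and sweat glands, lies at chr1:74791516-74804179. It was highest in the limbal-like, cycling and basal-like epithelium. Cluster 9, quiescent limbal-like, held 126 CPM in UW (118 to 134) and 145 CPM in W (140 to 149), and 75.2% of its UW cells and 84.6% of its W cells had a UMI of the gene (45.5% and 48.0% once each cell was thinned to 5000 UMIs). In the Mono-like clusters of W, at median depths of 8724 and 10144 UMIs, 4.46% of cells had one. Next in UW came the S phase cluster 11 with 49.8 CPM (53.7 CPM in W), the mitotic cluster 8 with 41.2 CPM (59.7 CPM in W) and the basal-like cluster 3 with 34.7 CPM (39.6 CPM in W), none of them overlapping its neighbours, and in W clusters 8 and 11 changed places. The suprabasal and superficial clusters lay far below at 0.463 to 0.634 CPM in UW, all with overlapping intervals.

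In those 4 clusters the libraries differed by less than 2-fold, with log2 ratios of 0.20 in cluster 9 (0.10 to 0.31), 0.11 in cluster 11 (-0.03 to 0.25), 0.54 in cluster 8 (0.40 to 0.67) and 0.19 in cluster 3 (0.06 to 0.32). All CEpC-like cells together gave 10.4 CPM in UW and 38.4 CPM in W, a log2 ratio of 1.88 (1.83 to 1.94). With the clusters weighted equally in both libraries that ratio was 0.40. Cluster 9 made up 3.86% of the captured epithelial cells in UW and 11.2% in W, and cluster 8 made up 3.96% and 15.7%. The pooled ratio of *Wnt10a* therefore depended on which cells were captured, and whether that makeup came from the wound or from the sampling cannot be told apart.

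The 6 epithelial clusters that passed 2-fold for *Wnt10a* were those with little of it. In the suprabasal-like cluster 4, for example, it measured 0.463 CPM in UW (20 UMIs) and 4.06 CPM in W (92 UMIs). Of all genes with at least 20 UMIs, 14.7%, 13.2%, 15.1%, 13.8% and 12.7% were 2-fold higher in W in clusters 1 to 5, and 17.2%, 23.2%, 10.8%, 9.12% and 12.7% in clusters 6 to 9 and 11. Clusters 1, 2, 4, 6 and 7 of W held 0.0492 to 0.101 UMIs of *Wnt10a* per cell, against 0.0324 (0.0205 to 0.0486) in cluster 13 and 0.0819 (0.0549 to 0.118) in cluster 14 of the same library, and stromal cluster 0 went from 0.00802 to 0.0430 per cell. Clusters 1, 2, 4 and 6 lay above the interval of the shallow cluster 13. The intervals of all 5 overlapped those of cluster 14 and of cluster 15 (0.0637, 0.0364 to 0.104), although clusters 4 and 1 had the highest values at 0.101 and 0.0829. Cluster 14 is a weak reference, since its 29 UMIs lay in 12 cells. It also held 63.0 UMIs of *Krt12* per cell, against 13.5 in cluster 15. Expression of *Wnt10a* in the 5 clusters was not told apart from the level in clusters 14 and 15. Conjunctival-like cluster 5 was higher, at 0.0718 per cell in UW (0.0569 to 0.0895) and 0.362 in W (0.329 to 0.398), which is 79 and 435 UMIs and a log2 ratio of 2.04 (1.69 to 2.40). Per 1000000 UMIs, however, its interval in W overlapped that of the shallow cluster 13 at 12.5 CPM (7.94 to 18.8).

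**Figure D2:**
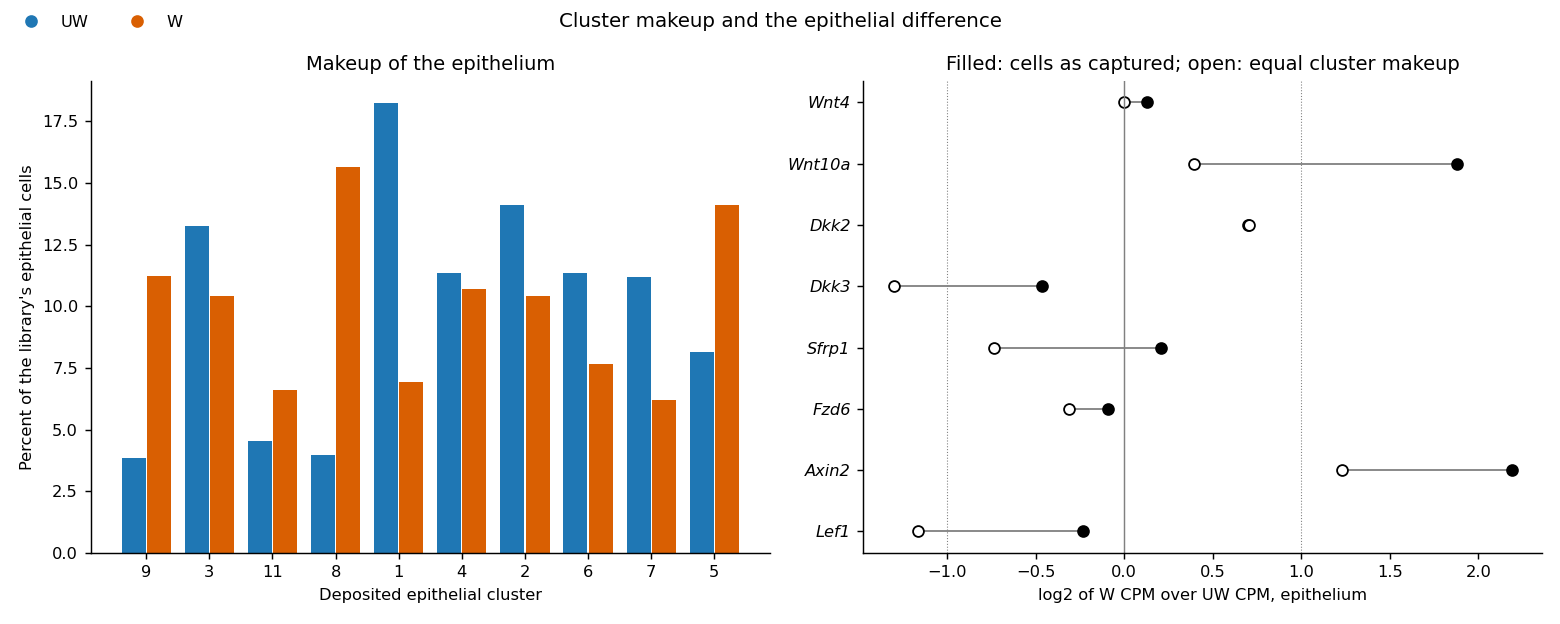
Left, the percentage of each library's captured epithelial cells in each of the 10 epithelial clusters, with UW in blue and W in orange. Right, log2 ratio of W over UW for each member in the pooled epithelium, with cells as captured (filled) and with equal cluster makeup in both libraries (open), and dotted lines at 2-fold. *Wnt10a* dropped from 1.88 to 0.40 and *Sfrp1* from 0.21 to -0.74 once makeup was equal, while *Axin2* stayed past 2-fold at 1.23.

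Among the antagonists, *Dkk2* (chr3:132085292-132180304) was the stromal one. In cluster 0 it measured 1284 CPM in UW (1271 to 1297) and 878 CPM in W (868 to 889), and 99.8% of UW and 99.9% of W cells had at least 1 UMI, against 10.4% of Mono-like cells. Cluster 10 came next with 661 CPM in UW and 398 CPM in W, and no other cluster of at least 50 cells exceeded 32.7 CPM. The gene was lower in W by a log2 ratio of -0.55 (-0.57 to -0.53) in cluster 0 and -0.73 (-0.80 to -0.66) in cluster 10. The 5 CSC markers were lower in W too, with 70090 and 36774 CPM in cluster 0 and 66925 and 43249 CPM in cluster 10. The 5 neutrophil markers summed to 2.14 and 87.6 CPM in cluster 0 and 2.10 and 148 CPM in cluster 10. Whether mixed-in cells had a part in the stromal ratios was not tested. Per cell, cluster 0 held 15.4 UMIs in UW and 16.6 in W while its median depth was 11853 and 17588 UMIs. Thinned to 5000 UMIs per cell, the ratio in cluster 0 was -0.49. In cluster 10 the UMIs per cell were 6.68 in UW and 5.24 in W, at median depths of 9288 and 12198 UMIs, and so were lower on both scales.

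Epithelial *Dkk2* was close to the level in leukocyte clusters. Epithelial clusters held 0.0691 to 0.179 UMIs per cell in UW and 0.129 to 0.212 in W, and clusters 13 to 16, led by leukocyte genes, held 0.0845 to 0.192 in W. Clusters 1, 5 and 8 of W lay just above that range, at 0.212, 0.195 and 0.195. Their intervals overlapped those of cluster 14 (0.149 to 0.244, 68 UMIs in 39 cells) and cluster 16 (0.0790 to 0.177). The log2 ratio in pooled epithelium was 0.70 (0.59 to 0.81), and the part of free RNA in it was not tested, since UW had no leukocyte cluster of 50 cells.

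*Dkk3*, a divergent Dickkopf that is not a typical Lrp antagonist, lies at chr7:112116017-112159057 and was instead found in basal epithelium. UW levels were 167 CPM in cluster 11 (160 to 175), 160 CPM in cluster 3 (156 to 164) and 151 CPM in cluster 8 (145 to 158), which are neighbours with overlapping intervals, and then 125 CPM in cluster 9. In W the same clusters measured 61.0, 76.8, 54.9 and 40.6 CPM, all of them below the UW values. The suprabasal-like cluster 1 went from 48.2 to 15.1 CPM. The remaining epithelial clusters held 1.95 to 9.66 CPM in UW and 1.93 to 5.45 CPM in W. Cluster 10, outside the epithelium, held 60.4 CPM in UW and 47.4 CPM in W.

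*Dkk3* was 2-fold lower in W in 6 of 10 epithelial clusters, among which log2 ratios were -1.67 in cluster 1 (-1.88 to -1.47), -1.62 in cluster 9 (-1.75 to -1.49), -1.46 in clusters 8 and 11, -1.09 in cluster 4 and -1.06 in cluster 3. Of all genes 11%, 13.1%, 11.1%, 13.5% and 7.47% were 2-fold lower in clusters 1 to 5, and 9.58%, 6.48%, 9.58%, 9.76% and 9.33% in clusters 6 to 9 and 11. The share of cluster 3 cells with a UMI was 89.5% in UW and 67.8% in W, and 54.7% and 28.7% after thinning, with 4.46% of Mono-like cells having one. In pooled epithelium the difference was smaller, with a log2 ratio of -0.46 (-0.50 to -0.42), and -1.30 with equal cluster makeup.

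*Sfrp1*, which binds Wnt ligands through a Frizzled-like domain, lies at chr8:23411502-23449632. It peaked in the quiescent limbal-like cluster 9, at 366 CPM in UW (352 to 380) and 196 CPM in W (190 to 201). Clusters 3, 8 and 11 formed a second level in UW at 188, 185 and 179 CPM with overlapping intervals, and lay at 86.9, 112 and 107 CPM in W. Conjunctival-like cluster 5 held 88.2 CPM in UW and 71.7 in W, and superficial-like clusters 6 and 7 held 3.77 and 2.84 CPM in UW.

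Where *Sfrp1* was abundant its CPM was lower in W. The log2 ratio was -0.90 in cluster 9 (-0.97 to -0.84), -1.11 in cluster 3 (-1.19 to -1.04), -0.73 in cluster 8 (-0.80 to -0.66) and -0.74 in cluster 11 (-0.83 to -0.66), and intervals lay below 0 in 7 of 10 epithelial clusters. Of these, cluster 3 alone reached 2-fold. In cluster 9 the UMIs per cell were nearly equal, 5.35 in UW (5.15 to 5.55) and 5.09 in W (4.95 to 5.24), at median depths of 13944 and 24009 UMIs. Clusters 11 (3.81 and 3.80) and 5 (2.16 and 2.16) were nearly equal per cell too, and cluster 8 held 4.44 and 4.10. Clusters 3 (3.44 and 2.22), 1 (1.86 and 1.28) and 4 (0.780 and 0.520) were lower in W per cell as well. The 3 intervals above 0 belonged to clusters 2, 6 and 7, where the level was low. In cluster 6 it was 2-fold higher, with 3.77 CPM in UW and 8.86 in W (log2 ratio 1.23), or 0.202 UMIs per cell in W against 0.161 in Mono-like cluster 14. Pooled epithelium gave a log2 ratio of 0.21 (0.18 to 0.23), which turned to -0.74 with equal cluster makeup, to -0.01 with TMM scaling and to -0.03 with median-of-ratios scaling.

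*Fzd6*, a Frizzled receptor best known for the planar polarity of hair follicles, lies at chr15:39006034-39038188. It was found in both epithelium and stroma. From the basal-like to the superficial-like clusters of UW it ranged from 75.0 CPM in basal-like cluster 3 (72.1 to 78.0) through 68.1 CPM in cluster 1 and 42.9 CPM in cluster 4 to 20.2 CPM in cluster 2, 8.22 CPM in cluster 6 and 4.16 CPM in cluster 7. The cycling clusters 11 and 8, at 62.8 and 58.4 CPM, lay between clusters 1 and 4, with intervals of 1 and 11 and of 11 and 8 overlapping, and limbal-like cluster 9, at 39.5 CPM, overlapped cluster 4. In W clusters 3, 1, 4, 2, 6 and 7 kept that order and cluster 9, at 35.7 CPM, was above cluster 4, with 1354 UMIs of *Fzd6* in cluster 3 against 2458 in UW (log2 ratio -0.32), and with 54.7, 27.4, 14.8, 7.79 and 5.44 CPM in clusters 1, 4, 2, 6 and 7. Stromal cluster 0 held 23.2 CPM in UW and 16.8 in W, which is 0.278 and 0.318 UMIs per cell against 0.0296 to 0.121 in clusters 13 to 16.

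None of the *Fzd6* differences reached 2-fold, and 6 of 10 epithelial intervals lay below 0. The lowest log2 ratio was -0.65 in cluster 4 (-0.78 to -0.52), whereas cluster 9 gave -0.15 (-0.34 to 0.05) and cluster 5 gave 0.01 (-0.13 to 0.15).

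**Figure D3:**
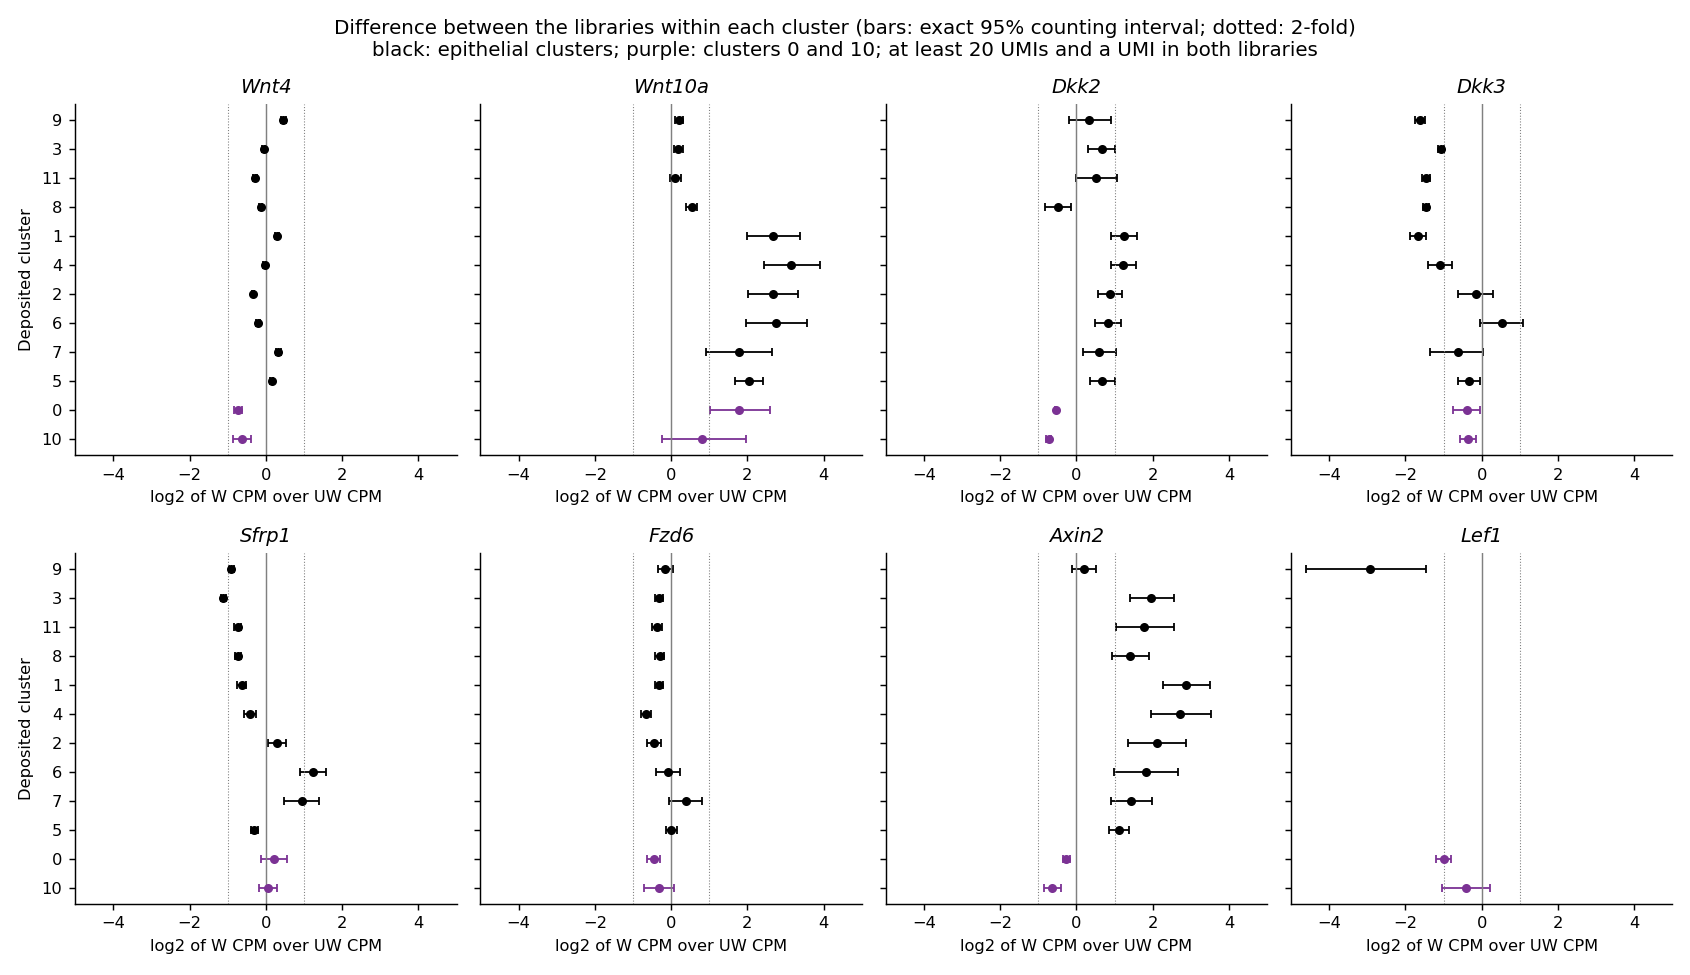
log2 ratio of W CPM over UW CPM for each member within each cluster (0 is equal, dotted lines are 2-fold), with exact 95% counting intervals. Epithelial clusters are black, and clusters 0 and 10 purple. Points with under 20 UMIs or none in 1 library are left out. *Dkk3* lay to the left of -1 in 6 epithelial clusters and *Axin2* to the right of 1 in 9, whereas *Wnt4* and *Fzd6* stayed inside the dotted lines.

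*Axin2* is a scaffold protein of the complex that degrades β-catenin and is itself transcribed in response to β-catenin, so its RNA is widely used as a readout of canonical Wnt signaling. The gene lies at chr11:108920349-108950783. Its highest levels were stromal, at 63.6 CPM in cluster 0 of UW (60.7 to 66.6) and 53.1 CPM in W (50.6 to 55.6). In cluster 10 it measured 59.7 CPM in UW (53.5 to 66.4) and 38.5 CPM in W (34.4 to 42.9). Intervals of clusters 0 and 10 overlapped in UW and not in W. In the epithelium only clusters 9 and 5 exceeded 5 CPM in UW, with 14.3 CPM in quiescent limbal-like cluster 9 (11.8 to 17.3) and 6.35 CPM in conjunctival-like cluster 5 (5.43 to 7.37).

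In W *Axin2* was higher in the epithelium and slightly lower in the stroma. CEpC-like cells together held 1.64 CPM in UW (1.51 to 1.79) and 7.49 CPM in W (7.15 to 7.84), a log2 ratio of 2.19 (2.05 to 2.33), and 1.23 with equal cluster makeup. It passed 2-fold in 9 of the 10 epithelial clusters, beside the 9.12% to 23.2% of all genes given above for single clusters. Examples were cluster 1, with 0.641 CPM in UW and 4.73 CPM in W, cluster 3, with 1.10 and 4.30 CPM, cluster 8, with 3.28 and 8.68 CPM, and cluster 5, with 6.35 and 13.8 CPM. In cluster 5 the log2 ratio was 1.12, which fell short of 2-fold as the mean of each cell's own CPM (0.93) and with cells thinned to 5000 UMIs (0.84). The exception was cluster 9, where 14.3 CPM in UW stood beside 16.5 CPM in W (14.9 to 18.1), a log2 ratio of 0.20 (-0.11 to 0.52) whose sign turned under another setting. In cluster 0 the log2 ratio was -0.26 (-0.36 to -0.16) and in cluster 10 -0.63 (-0.86 to -0.41). Per cell, cluster 0 held 0.763 UMIs of *Axin2* in UW (1808 UMIs in 2369 cells) and more in W (1722 UMIs in 1719 cells), at the depths given for *Dkk2*.

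Free RNA was measured against *Axin2* in the same library. Clusters 13, 14 and 15 of W held 0.0141, 0.0282 and 0.0359 UMIs per cell, with upper bounds of 0.0259, 0.0520 and 0.0681. T-like cluster 16 held 0.158 per cell (0.110 to 0.221) and 1.31 UMIs of *Axin2* for each of *Dkk2*, above the other leukocyte clusters. Clusters 9, 5, 8, 11, 1, 3 and 7 of W held 0.110 to 0.429 per cell, above the bounds of clusters 13 to 15, and clusters 9, 5 and 8 were also above that of cluster 16. Cluster 4 held 0.0713 per cell (0.0550 to 0.0909). Clusters 2 and 6 held 0.0473 and 0.0445, above the values of clusters 14 and 15 but below their upper bounds. On the CPM scale the contrast was smaller, since the shallow clusters 13, 14 and 15 held 5.45, 2.71 and 3.32 CPM, about the levels of epithelial clusters 11, 7, 1, 3 and 4 of W (2.87 to 4.97 CPM), while clusters 8, 5 and 9 lay at 8.68, 13.8 and 16.5 CPM. For each UMI of *Dkk2* there were 0.0604 UMIs of *Axin2* in W cluster 0, but 0.259 to 2.75 in the epithelial clusters of W, and 0.167, 0.147 and 0.310 in clusters 13, 14 and 15. Clusters 2, 4 and 6 of W, at 0.286, 0.371 and 0.259, lay nearest to those values.

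Marker lists of other cell classes were summed in the epithelial clusters beside these values. The 5 CSC markers summed to 1154 to 11122 CPM in UW and to 1049 to 5639 CPM in W, were lower in W in all 10 clusters, and had no marker at 0. *Kera*, a gene of that list, measured only 22.1 CPM in UW and 14.4 CPM in W in CEpC-like cells. Other genes of the list thus carried the sum, which is no measure of mixed-in stromal cells. The 5 neutrophil markers summed to 2.03 to 154.9 CPM in UW and to 352 to 1050 CPM in W, with *Retnlg* at 0 in every UW cluster and in clusters 1, 4 and 11 of W, and cluster 13 itself held 5.45 CPM of *Axin2*. Most of that sum was *S100a8* and *S100a9*, at 156 and 541 CPM in W CEpC-like cells against 13612 and 19963 CPM in cluster 13. Whether these RNAs came from neutrophils was not tested. The 5 T cell markers reached 3.62 CPM in W epithelium and 3431 CPM in T-like cluster 16. The 5 Mono markers summed to 4.15 to 467 CPM in UW epithelium and 14.4 to 246 CPM in W. They were lower in W in clusters 5 and 7 and higher in the other epithelial clusters, with 21643 CPM in Mono-like cluster 15. Whether mixed-in cells had a part in the epithelial *Axin2* values was not tested further.

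**Figure D4:**
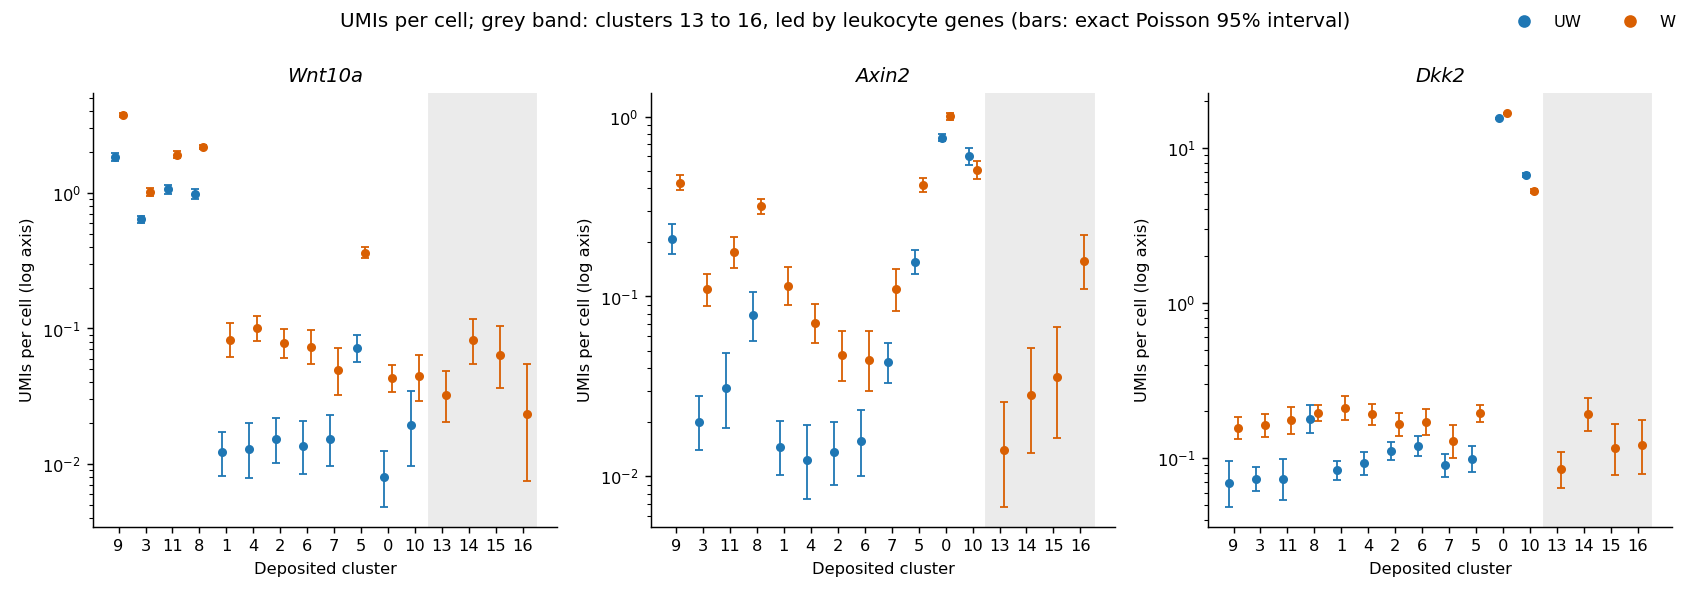
UMIs per cell (log axis) of *Wnt10a*, *Axin2* and *Dkk2* by cluster, with UW in blue, W in orange and exact Poisson 95% intervals. The grey band holds clusters 13 to 16, led by leukocyte genes and large enough only in W. W epithelium lay above clusters 13 to 15 for *Axin2* in most clusters (0.429 in cluster 9 against 0.0141 in cluster 13), whereas for *Dkk2* the intervals of all 10 overlapped that of cluster 14.

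*Lef1* encodes a DNA-binding partner of β-catenin and lies at chr3:131110471-131224356. It was scarce in epithelium. Stromal cluster 0 held 20.8 CPM in UW (19.2 to 22.6) and 10.4 CPM in W (9.36 to 11.6), and 20.4% of UW and 16.4% of W cells had a UMI (9.62% and 4.33% after thinning), against 0.165% of Mono-like cells. The log2 ratio was -0.997 (-1.19 to -0.80), just short of 2-fold. Cluster 10 held 7.70 CPM in UW and 5.77 CPM in W, with overlapping intervals.

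T-like cluster 16 had the highest *Lef1* level of W at 23.1 CPM (14.8 to 34.4, 24 UMIs in 215 cells), and *Lef1* is known as a T cell gene. Its *Axin2* was 32.7 CPM (22.7 to 45.7). Epithelium as a whole held 41 UMIs of *Lef1* in 13501 UW cells and 25 in 8507 W cells. Of the 41, 14 came from the 521 cells of cluster 9, which had 1.84 CPM (1.00 to 3.08) in UW and 0.241 CPM (0.0884 to 0.525) in W, a log2 ratio of -2.93 (-4.60 to -1.46). Those UMIs lay in few cells, 7 in UW (1.34%, 0.542% to 2.75%) and 6 in W (0.628%, 0.231% to 1.36%), and these shares of cells had overlapping intervals. Clusters 6, 7 and 11 had 0 UMIs in W, which allows up to 0.201, 0.251 and 0.151 CPM.

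Across the 28 groups of cluster and library with at least 50 cells, the members' log2(CPM + 1) values grouped as the levels above describe. Pearson's r was 0.87 for *Dkk3* and *Sfrp1*, 0.80 for *Fzd6* and *Sfrp1* and 0.78 for *Wnt10a* and *Sfrp1*. For the stromal members it was 0.85 for *Dkk2* and *Lef1*, 0.83 for *Axin2* and *Lef1* and 0.80 for *Dkk2* and *Axin2*, and it was -0.79 for *Wnt4* and *Dkk2*. The groups share 2 libraries, their depth and their free RNA, so these values are descriptions. Among 11191 genes the closest patterns were those of *Meis2* (0.97), *Pax6* (0.96) and *Ripk4* (0.96) for *Wnt4*, and of *Jag2* (0.97), *Spon2* (0.96) and *Itgb4* (0.95) for *Wnt10a*. *Dkk2* was most like *Aqp1*, *C1qtnf7* and *A2m*, each at 0.997, and *Lef1* most like *Camk4* (0.97), *Cers4* (0.95) and *Chst2* (0.95). For *Dkk3* they were *Fam124a* (0.93), *Papss2* (0.92) and *Cth* (0.92), for *Sfrp1* *Tsc22d1*, *P2ry1* and *Cib2* (each 0.93), for *Fzd6* *Igsf3* (0.95), *Elp4* (0.94) and *Gmpr* (0.93), and for *Axin2* *Spats2l* and *Gm20342* (each 0.93).

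The members were then set beside a list of 83 Wnt pathway genes ordered by role, of which 76 had a column. In CEpC-like cells 2 of the 8 members, *Wnt10a* and *Axin2*, were 2-fold higher in W and 0 were 2-fold lower, where 21.8% of 16439 genes with at least 20 UMIs were higher and 8.77% lower. With equal cluster makeup *Wnt10a* lost that difference (0.40), while *Dkk3* (-1.30) and *Lef1* (-1.17, on 41 UMIs in UW, 14 of them in 7 cells of cluster 9, and 25 in W, with an interval of -1.01 to 0.52 as captured) were 2-fold lower. In CSC-like cells 1 of 8, *Wnt10a* at 0.668 and 2.28 CPM (log2 ratio 1.77, but 0.98 with cells thinned to 5000 UMIs), was higher and 0 were lower, against 7.34% and 9.67% of 14245 genes. Of the whole list, 67 genes had at least 20 UMIs in CEpC-like cells, and 15 of them (22.4%) were higher and 5 (7.46%) lower, a split that was 11 and 6 with TMM or median-of-ratios scaling. The median log2 ratio was 0.19 for the list and 0.22 for all genes, so the list as a whole stood close to the background.

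These pooled counts depended on the cluster makeup. With each epithelial cluster weighted alike in both libraries, an alternative chosen after the data had been seen, 6 genes of the list were 2-fold higher and 10 lower, where 13.2% of all genes were higher and 9.93% lower. The values that follow are given as captured and then with equal makeup.

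Of the 7 feedback and target genes 5 were 2-fold higher as captured (21.8% of all genes were), with a median log2 ratio of 1.19, and 3 were with equal makeup, with a median of 0.53. *Axin2* (2.19 and 1.23), *Nkd2* (2.02 and 1.61) and *Nkd1* (1.19 and 1.14) passed 2-fold both ways. *Nkd2* and *Nkd1* were scarce, at 0.0968 and 0.230 CPM in UW and 0.296 and 0.508 CPM in W with equal makeup. The part of free RNA in them was not tested. With TMM or median-of-ratios scaling of the cells as captured, *Nkd1*, *Myc*, *Wnt10b* and *Fzd8* fell short of it. *Nkd1* and *Nkd2* encode inhibitors of Dishevelled, and both are known as Wnt-induced genes. *Sp5*, a zinc finger factor also known as a Wnt target, had 2.31 and 0.53 on only 14 and 50 UMIs, and *Myc*, which answers to many signals, had 1.07 and 0.30. *Ccnd1*, the cell cycle gene of the list, changed sign (0.07 and -0.54), at 293 and 308 CPM as captured.

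Of 12 measurable ligands 3 were higher as captured, *Wnt5b* (2.03), *Wnt10a* (1.88) and *Wnt10b* (1.14), and none of the 3 passed 2-fold with equal makeup (0.19, 0.40 and -0.18). *Wnt2* was lower both ways (-1.23 and -1.80), *Wnt7b* was at -1.05 and -0.93, and *Wnt9a* was higher with equal makeup only (0.89 and 1.12). Among receptors *Fzd4* was lower both ways (-1.12 and -1.55), while *Ror2* (1.66 and 0.37) and *Fzd8* (1.21 and 0.54) were higher as captured only.

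Of the antagonists *Kremen2* was lower both ways (-1.97 and -1.91), and *Frzb* was higher both ways (5.26 and 4.93). *Apcdd1* (1.52 and 0.13) lost its difference, *Sostdc1* changed sign (1.37 and -0.67), and *Dkk3* and *Notum* (0.43 and -1.11) were 2-fold lower with equal makeup only. The same held for the R-spondin receptors *Lgr4* (-0.52 and -1.06), *Lgr5* (0.12 and -1.37) and *Lgr6* (0.03 and -2.03), of which *Lgr5* and *Lgr6* had 21 to 30 UMIs per library. *Tcf7*, a relative of *Lef1*, had 2.05 and 0.69, while the T cell markers in single epithelial clusters summed to at most 0.547 CPM in UW and 3.62 CPM in W. *Apc*, a scaffold of the degradation complex, was lower both ways at 75.3 and 26.8 CPM as captured (-1.49 and -1.56). *Rspo1* and *Frzb* had 2 UMIs each in UW epithelium, against 22 and 55 in W, and both were far more abundant in the stroma.

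In CSC-like cells 62 genes of the list had at least 20 UMIs, 6 were higher and 6 lower (9.68% each; 6 and 4 with TMM, 7 and 4 with median-of-ratios scaling), and the median log2 ratio was -0.21 for the list and -0.15 for all genes. *Rspo1*, a ligand of the Lgr receptors that strengthens Wnt signaling, went from 11 to 357 UMIs (log2 ratio 4.83), and *Frzb*, a secreted Frizzled-related antagonist, from 0.527 to 20.5 CPM (15 to 666 UMIs, 5.28). *Sp5* (2.37), *Myc* (1.86), *Porcn* (1.01) and *Wnt10a* completed those higher, but *Wnt10a*, at 0.0430 UMIs per cell in W, was within the range of clusters 13 to 16 (0.0233 to 0.0819). Apart from *Porcn* (0.20 in epithelium), these genes were also past 2-fold in epithelium as captured. Lower in W were the ligands *Wnt11* (283 and 104 CPM, -1.44) and *Wnt6* (-1.04, 18 and 10 UMIs), the receptor gene *Fzd10* (-1.23) and the antagonists *Notum* (23.5 and 7.37 CPM, -1.67), *Wif1* (30.6 and 13.9 CPM, -1.14) and *Sostdc1* (-1.83), of which *Wnt6* and *Wif1* fell short of 2-fold with either other scaling. *Wnt5a* was the most abundant ligand there at 1059 CPM in UW and 643 CPM in W.

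In cluster 9, where *Wnt10a*, *Sfrp1* and epithelial *Axin2* were highest, more genes of the list were lower than higher in W by CPM. Its median depth was 13944 UMIs in UW and 24009 in W, so a lower CPM need not mean fewer UMIs per cell. Of 60 genes with at least 20 UMIs, 1 (1.67%) was 2-fold higher and 14 (23.3%) lower in W, against 9.12% and 9.76% of 12370 genes in that cluster, and the median log2 ratio was -0.64 for the list and -0.06 for all genes. The other scalings move each ratio of this cluster up by 0.13 or 0.12, and *Wls* then falls short of 2-fold. Lower genes also outnumbered higher ones in clusters 11 (3 higher and 9 lower), 3 (5 and 9), 4 (9 and 10) and 2 (7 and 10), but not in clusters 1 (9 and 8), 5 (8 and 4), 6 (7 and 4), 7 (8 and 4) and 8 (7 and 6), and the shares over all genes in each cluster are those given above. Whether the clusters differed in this was not tested. The gene that was higher in cluster 9 was *Fzd10* (1.16, 23 to 168 UMIs). The lower ones included the members *Dkk3* and *Lef1*, the ligand *Wnt2* (18.1 and 2.57 CPM, -2.82), the cargo receptor for Wnt secretion *Wls* (262 and 131 CPM), the receptor-turnover ligase *Rnf43* (-1.29), *Lgr6* (-3.16, 30 and 11 UMIs), *Notum* (-2.15) and *Apc* (-1.40). With 1 library per condition these counts describe these libraries, and the list was not tested as a set.

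**Figure D5:**
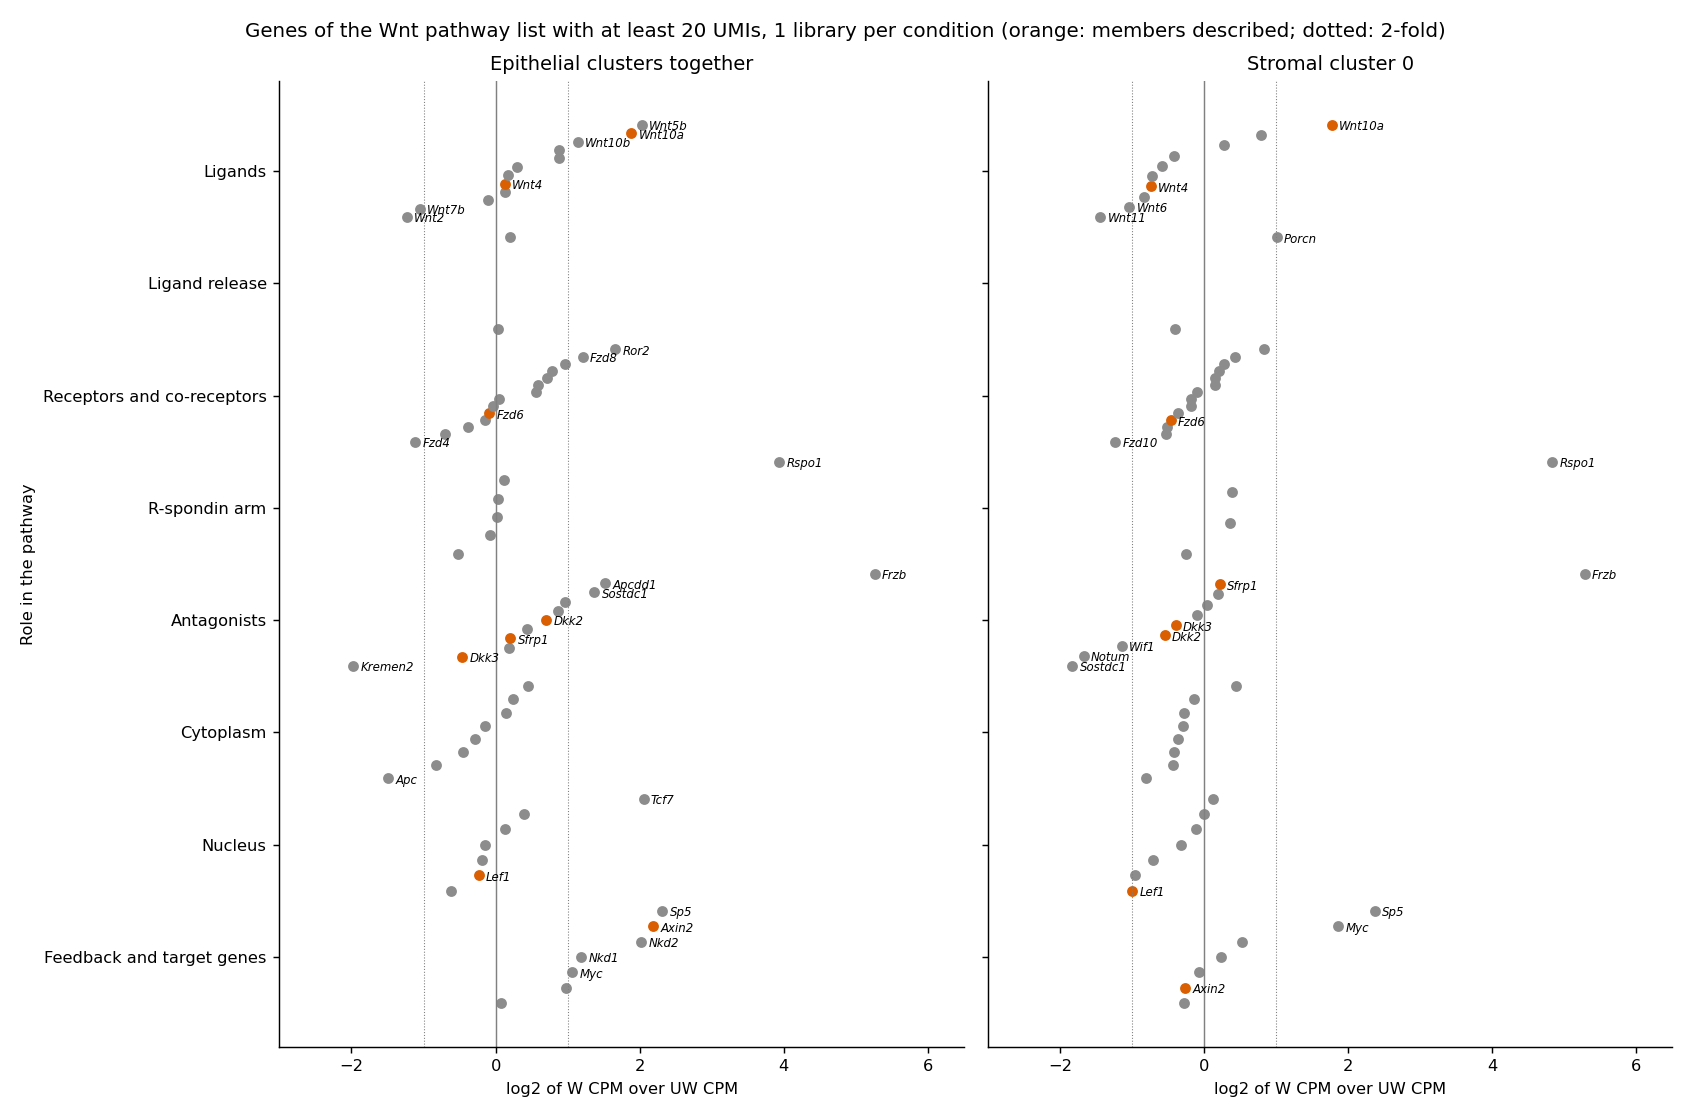
log2 ratio of W CPM over UW CPM for each gene of the Wnt pathway list with at least 20 UMIs, by role, in CEpC-like cells (left) and CSC-like cluster 0 (right). Orange points are the members, dotted lines mark 2-fold, and genes past it are named. *Axin2* stood at 2.19 on the left and -0.26 on the right, and *Frzb* at 5.26 and 5.28.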

How the data were processed

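Corneal cells were sequenced by 10x Genomics droplets in 2 libraries (UW and W, 4 mice each). Per the labels Cell Ranger 3.1.0 was used, and UMI counts per gene and cell were deposited by the authors as raw whole numbers. Their cell filter shows in the table, where cells hold 501 to 7570 genes and at most 9.99% mitochondrial UMIs. The paper names the mm10 reference and the labels mm9. The tables used here hold fewer cells than the study's text gives. Deposited cluster numbers were used, and named by marker lists. Doublets had been called by the authors with DoubletFinder, and 305 UW and 164 W cells with such a call remained and were left out in an alternative.

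The 9 genes and all lists were chosen with earlier results of these data known. Named genes were all members, the list's genes past 2-fold and its most abundant gene per role, and 3 like genes per member (at least 500 UMIs and 10 CPM in 1 group), of which 1 is not reported here. *Ccnd1* was named after its value was seen. Counts were summed per cluster and library to CPM in Python 3.11.15 (numpy 2.4.6, pandas 2.3.3, scipy 1.17.1), with exact Poisson intervals, exact binomial intervals of the ratio of 2 counts and Clopper-Pearson intervals of shares, all at 95%. UW epithelium summed to 332977270 UMIs and W epithelium to 239014699. No test was made. TMM factors came from edgeR 4.0.16 and median-of-ratios factors from DESeq2 1.42.0. Positions are from GENCODE M21 (GRCm38; 19908 of 20198 genes found by symbol). Ratios and intervals were tested on simulated data.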

Additional observations from a re-analysis of the deposited data

Results flagged for a closer look

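*Wnt4*, *Dkk2* and *Axin2* differed between the libraries in opposite directions in the epithelium and in the stroma, with both counting intervals clear of 0. *Axin2* had a log2 ratio of 2.19 in CEpC-like and -0.26 in CSC-like cells, a gap of 2.45, although the epithelial value was 1.23 with equal cluster makeup, the stromal one was -0.087 with median-of-ratios scaling, and the UMIs per stromal cell were not lower in W. For *Dkk2* the values were 0.70 and -0.55, a gap of 1.25, although epithelial *Dkk2* in W was close to the level in leukocyte clusters. For *Wnt4* they were 0.13 and -0.73, a gap of 0.86, although stromal *Wnt4* was within the range of leukocyte clusters and the epithelial value changed sign with either other scaling. With 1 library per condition the difference between the classes was not tested for any of the 3.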

How the results depend on the processing

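The cause of each shift below was not tested beyond what the setting itself does. The scalings move all ratios of a class together, by -0.22 (TMM) and -0.23 (median of ratios) in epithelium and by 0.14 and 0.17 in stroma on the log2 scale, and the equal makeup weights each epithelial cluster alike in both libraries. Class ratios that moved beyond their counting interval are given as log2 of W over UW. With TMM scaling the ratio was in epithelium -0.087 for *Wnt4*, 1.67 for *Wnt10a*, 0.48 for *Dkk2*, -0.68 for *Dkk3*, -0.012 for *Sfrp1*, -0.31 for *Fzd6* and 1.97 for *Axin2*, and in stroma -0.59 for *Wnt4*, -0.40 for *Dkk2* and -0.12 for *Axin2*. With median-of-ratios scaling the ratio was in epithelium -0.10 for *Wnt4*, 1.65 for *Wnt10a*, 0.47 for *Dkk2*, -0.70 for *Dkk3*, -0.028 for *Sfrp1*, -0.32 for *Fzd6* and 1.96 for *Axin2*, and in stroma -0.56 for *Wnt4*, -0.37 for *Dkk2*, -0.29 for *Fzd6* and -0.087 for *Axin2*. With a stricter cell filter (1000 genes, 5% mitochondrial UMIs) the ratio was in epithelium 0.15 for *Wnt4*, 2.04 for *Wnt10a*, -0.39 for *Dkk3* and 0.30 for *Sfrp1*. As the mean of each cell's own CPM the ratio was in epithelium 0.087 for *Wnt4*, 1.32 for *Wnt10a*, 0.83 for *Dkk2*, -0.93 for *Dkk3*, -0.23 for *Sfrp1*, -0.25 for *Fzd6* and 1.80 for *Axin2*, and in stroma -0.51 for *Dkk2*. With cells thinned to 5000 UMIs the ratio was in epithelium 0.089 for *Wnt4*, 1.35 for *Wnt10a*, 0.89 for *Dkk2*, -0.91 for *Dkk3*, -0.17 for *Sfrp1*, -0.20 for *Fzd6* and 1.74 for *Axin2*, and in stroma 0.98 for *Wnt10a*, -0.49 for *Dkk2* and -1.27 for *Lef1*. With equal cluster makeup the ratio was in epithelium -0.00042 for *Wnt4*, 0.40 for *Wnt10a*, -1.30 for *Dkk3*, -0.74 for *Sfrp1*, -0.31 for *Fzd6*, 1.23 for *Axin2* and -1.17 for *Lef1*. Thus *Sfrp1* and *Wnt4* in epithelium changed sign under at least 1 setting, with equal makeup *Wnt10a* in epithelium lost its 2-fold difference while *Dkk3* and *Lef1* there passed 2-fold, and after thinning *Wnt10a* in stroma lost its 2-fold difference while *Lef1* there passed it. Leaving out called doublets moved none of the class ratios.

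Shares of cells with a UMI moved when cells were thinned to 5000 UMIs. For *Wnt4* 79.5% in UW epithelium, 28.9% in UW stroma, 79.5% in W epithelium and 18.5% in W stroma. For *Wnt10a* 5.95% in UW epithelium, 13.7% in W epithelium and 0.937% in W stroma. For *Dkk2* 1.95% in UW epithelium, 3.61% in W epithelium and 96.8% in W stroma. For *Dkk3* 18.6% in UW epithelium, 2.63% in UW stroma, 11.5% in W epithelium and 2.22% in W stroma. For *Sfrp1* 26.6% in UW epithelium, 1.90% in UW stroma, 26.6% in W epithelium and 2.63% in W stroma. For *Fzd6* 17.3% in UW epithelium, 10.1% in UW stroma, 15.3% in W epithelium and 7.55% in W stroma. For *Axin2* 0.967% in UW epithelium, 26.8% in UW stroma, 3.18% in W epithelium and 22.8% in W stroma. For *Lef1* 0.0685% in UW epithelium, 9.62% in UW stroma, 0.0600% in W epithelium and 4.33% in W stroma. With equal cluster makeup, an alternative chosen after seeing the data for this list, 6 genes of the pathway list were higher and 10 lower in W epithelium. At a 1.5-fold limit 25 genes of the pathway list were higher and 8 lower in W epithelium, and 13 lower in W stroma. With TMM scaling the list split into 11 higher and 6 lower genes in epithelium, where CPM gave 15 and 5, and into 6 and 4 in stroma, where CPM gave 6 and 6, and the median-of-ratios split was 11 and 6, and 7 and 4. Of 79 member ratios within single clusters with at least 20 UMIs, 66 kept their sign under every setting, as did all 26 past 2-fold, of which *Axin2* in cluster 5 fell short of 2-fold under 2 settings (0.93 and 0.84). Those that changed sign included *Axin2* in cluster 9 (-0.12 to 0.34) and *Dkk2* in cluster 8 (-0.53 to 0.73).

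Leaving out a replicate was not possible with 1 library per condition. No paired analysis was possible because the groups hold 1 library each. Depth limits *Lef1* in epithelium, with 41 UMIs in UW and 25 in W, and every interval leaves out the variation between mice.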
